A study of Coturnix japonica with 144 samples.

Results

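In the brains of Japanese quail, 97 of the 21561 genes counted were at least 2 times higher in the BnST (bed nucleus of stria terminalis) than in both other regions sampled, the hypothalamus and the nucleus taeniae (Tn). These genes, called members below, were chosen by their region medians. For each gene the median of its CPM (counts per 1000000 counts of the library) was taken over the 48 libraries of each region. A member had a BnST median of at least 2 CPM that was at least 2 times the median of the hypothalamus and of the Tn, with 0.1 CPM added to each median. Members were ranked by the smaller of the 2 ratios, and the limit of 150 genes was not reached. The 21 genes that the study itself had singled out for treatment or brooding were to be left out, and 0 of them met the rule. Because the region contrast chose the members, it is given as a description with no test.

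The libraries came from 48 adult quail of both sexes, each of which gave 1 library from each region. The birds were kept on a short photoperiod, under which quail are reproductively quiescent, and each had spent a night shut in a wooden box. In the sensitization treatment (I, 11 females and 13 males) chicks were added to the box for that night, whereas control birds (C, 16 females and 8 males) were alone, and all birds met unfamiliar chicks the next morning. The labels also give a response class. Of the sensitized birds 17 were labelled R and 6 NR, and of the controls 5 were labelled S and 17 NS, whereas 3 birds carried the label NA. The labels come without a key, and they are used here only as labels. All regions were taken as micropunches from frozen sections, with a wider punch for the hypothalamus than for the BnST and the Tn. The BnST punch was placed with the lateral ventricle as a guide. Each library of a region came from a separate bird, so that p-values measure the spread between birds. In such bulk tissue, fewer cells of a type, less RNA per cell and a difference in the tissue caught by the punch cannot be told apart.

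The BnST is a forebrain nucleus that links the amygdala and its relatives with the hypothalamus, and in birds and mammals it takes part in social, sexual and parental behaviour. The Tn is regarded as the avian counterpart of part of the medial amygdala. The hypothalamus holds the preoptic area, a centre for parental care, and controls the pituitary. A punch of any of them holds neurons, glia and vessels together. The counts list genes by Ensembl identifier, and the gene table used here pairs 0 of the 21561 identifiers with a name, so that roles cannot be given for single members.

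Library totals ran from 9664414 to 19640873 counted reads (median 12636688), and 0 pairs of libraries were identical. The TMM factor, by which edgeR corrects a library for its composition, was 0.795 in the BnST library of bird 49. In the other libraries it ran from 0.940 to 1.061. CPM were taken from column totals without this factor, and several BnST results were also computed without bird 49. In 3 birds (12, 20 and 25) at most 48 of the 97 members were highest in the BnST, and the main BnST results were also computed without them. The lists of cell type markers consist of gene names and could not be read in these counts, so that the labelled regions were not checked against markers.

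Members ranged widely in level. Their BnST medians ran from 2.10 to 13985 CPM with a median of 9.29 CPM. There were 27 members under 5 CPM, 59 from 5 to under 50 CPM and 11 at 50 CPM or more. The smaller ratio was under 3 in 40 members, from 3 to under 10 in 37 and 10 or more in 20, with a median of 3.42. The second region did not separate the members, as the hypothalamus median was above the Tn median in 49 members and below it in 46.

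The first member, ENSCJPG00005009886, stood far above the others. In the BnST it ranged from 20.02 CPM in bird 12 to 71227 CPM in bird 26, with a median of 13985 CPM. In the Tn its lowest, median and highest values were 10.3, 126 and 26807 CPM, and in the hypothalamus 9.78, 34.7 and 3232 CPM. At its highest this single gene took 7.12% of all counts of a BnST library. It was above 1000 CPM in 43 BnST libraries, in 14 Tn libraries and in 1 hypothalamus library. In 46 of 48 birds the BnST value was the highest of the 3 regions, and birds 12 and 20 were the exceptions. Bird 12 had 20.022 CPM in the BnST, 176 in the Tn and 56.5 in the hypothalamus, and bird 20 had 27.3, 154 and 45.6 CPM.

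**Figure D1:**
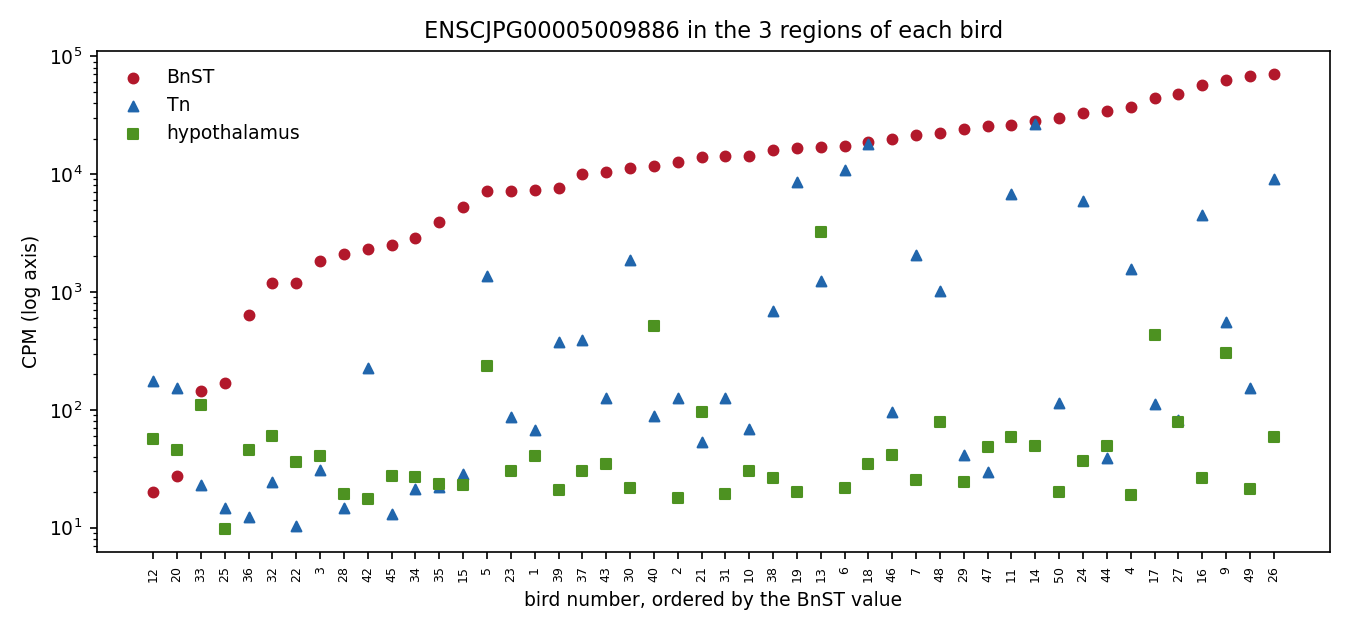
CPM of ENSCJPG00005009886 (log axis) in the BnST (circles), the Tn (triangles) and the hypothalamus (squares) of each of the 48 birds, ordered by the BnST value. BnST values run from 20.02 to 71227 CPM and are the highest of the bird in 46 birds, while 14 Tn values exceed 1000 CPM.

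The second member, ENSCJPG00005016433, had the same order of regions at a lower level. Its lowest, median and highest values were 0.808, 210 and 971 CPM in the BnST, 0.209, 2.31 and 408 CPM in the Tn, and 0.152, 0.845 and 45.4 CPM in the hypothalamus. Its lowest BnST value was again in bird 12 and its highest in bird 26. The fifth member, ENSCJPG00005016847, had the second largest spread between BnST libraries. It was at 0 in 3 BnST, 9 Tn and 22 hypothalamus libraries and reached 92.0 CPM in the BnST of bird 9. The limit of the rule fell within a continuous run of values. The last members inside had ratios of 2.015 (ENSCJPG00005017311, 5.66 CPM in the BnST) and 2.005 (ENSCJPG00005018108, 6.92 CPM), and the first genes outside had ratios of 1.99 (ENSCJPG00005016134, 189 CPM) and 1.95 (ENSCJPG00005017183, 5.02 CPM).

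The order of regions within single birds comes from the same values that chose the members, and is given as a description. The BnST was the highest region in most birds but not in all. A member was highest in the BnST of its own bird in 32 to 48 of the 48 birds, with a median of 43, and only ENSCJPG00005010620 was so in all 48. That member had a BnST median of 559 CPM against 174 in the Tn and 171 in the hypothalamus. Seen by bird, 32 to 97 members were highest in the BnST, with a median of 90, and in 31 birds at least 90% of members were. Birds 12 and 20 had 32 such members each, bird 25 had 48, bird 14 had 51 and bird 33 had 52. Bird 14 differed from the others in this list, as its Tn library had the highest value of the first member among the 48 Tn libraries.

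Most members rose and fell together from bird to bird. On the scale of log2(CPM + 0.1), the first principal component held 76.7% of the variance of the 97 members over the 48 BnST libraries, and the second held 7.44%. Grouping the members by their correlation in these libraries (average linkage, cut at 1 − r = 0.6) gave a group of 76 members, here group A, with a mean pairwise r of 0.816. Cuts at 0.5 and 0.7 gave the same 76 members. Without birds 12, 20 and 25, the mean r within group A was 0.799 and the first component held 72.5% of the variance. Smaller groups held 10 members (group B, mean r of 0.652) and 6 members (group C, mean r of 0.654), and 5 members joined neither. These groups were drawn after the values had been seen, from libraries that share depth and normalization, and serve as a description. As most members vary together, members that share a direction in the comparisons below are not independent of each other.

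**Figure D2:**
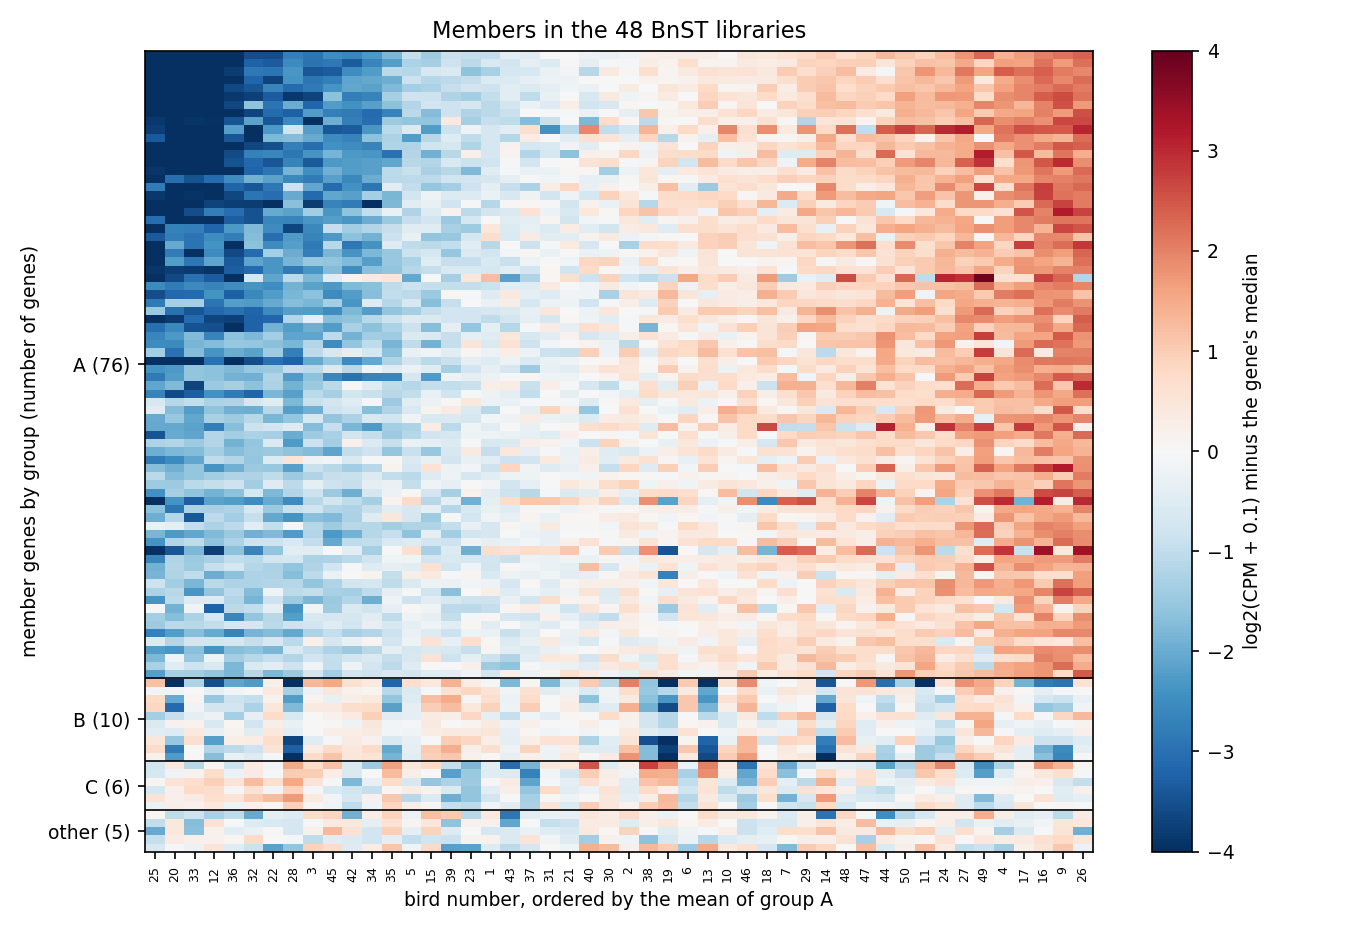
The 97 members (lines, by group) in the 48 BnST libraries (columns, by bird number, ordered by the mean of group A), coloured by log2(CPM + 0.1) minus the median of the gene, with the colour scale cut at 4 units to either side. The 76 members of group A change together from bird 25 to bird 26, while groups B (10) and C (6) follow another order.

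The 76 members of group A held all of the first 35 ranks. The mean log2(CPM + 0.1) of group A in the BnST was lowest in bird 25 (0.50), bird 20 (0.58), bird 33 (0.73), bird 12 (0.79) and bird 36 (1.16). It was highest in bird 26 (5.54), bird 9 (5.49), bird 16 (5.47), bird 17 (5.15) and bird 4 (4.96), and the median over birds was 3.68. Low and high birds thus both include females and males and sensitized and control birds. Across birds the members together took from 0.0764% to 8.08% of all BnST counts, with a median of 1.65%. The corresponding medians were 0.0774% in the Tn and 0.0685% in the hypothalamus. The group A mean had a correlation of r = 0.19 with the total counts of the 48 BnST libraries, given as a description.

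Group A was also a group in the Tn, but hardly in the hypothalamus. The mean pairwise r of the same 76 genes was 0.671 over the 48 Tn libraries and 0.120 over the 48 hypothalamus libraries. In the Tn its mean ran from −0.37 (bird 28) to 4.36 (bird 14), with a median of 0.54, and the 3 highest libraries were those of birds 14, 18 and 19. In the hypothalamus it ran from 0.35 to 2.16 with a median of 0.59, and bird 13 was the highest. Between the BnST and the Tn of the same birds the group A mean had r = 0.42 (rho = 0.46, n = 48), and between the BnST and the hypothalamus r = 0.10 (rho = −0.03, n = 48). The points are the same 48 birds in each case, and the correlations are descriptions.

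Group A extended beyond the members. Among 13844 other genes with a BnST median of at least 1 CPM, 71 had r of at least 0.8 with the group A mean, 0 had r of −0.8 or less, and 13230 lay between −0.5 and 0.5. The 21 genes that the study had singled out had r between −0.26 and 0.24. These values are descriptions over 48 libraries that share their normalization.

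Groups B and C moved in opposite directions. In the BnST the mean of group B was lowest in bird 19 (1.505), bird 28 (2.03), bird 13 (2.15) and bird 14 (2.18), and the mean of group C was among the highest in bird 28 (4.37), bird 19 (4.34) and bird 13 (4.07). Conversely, birds 46 and 49 had the highest group B means (5.41 and 5.35) and low group C means (1.38 and 1.803). Over the 48 birds the means of groups B and C had r = −0.75 (rho = −0.77), whereas group A had r = 0.09 with group B and −0.13 with group C. All 3 groups were chosen from these same libraries, so that this opposition is a description.

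The first member of group B, ENSCJPG00005003573, had lowest, median and highest values of 0.202, 13.3 and 53.8 CPM in the BnST, with the lowest in bird 19. It had 0, 1.496 and 10.9 CPM in the Tn and 1.08, 2.89 and 18.96 CPM in the hypothalamus. The first member of group C, ENSCJPG00005014544, had 0.839, 7.63 and 51.1 CPM in the BnST, with the lowest in bird 43 and the highest in bird 38. Its values were 0.200, 0.901 and 9.52 CPM in the Tn and 0.854, 1.83 and 5.05 CPM in the hypothalamus. Members of these groups were thus also variable, but none of them ranked above place 36. Between the BnST and the hypothalamus of the same birds the group B mean had r = −0.47 (rho = −0.40, n = 48), unlike group A.

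Sex was the first comparison that the rule did not use. However, the rule pooled the sexes, so that a gene could pass through the sex in which it was higher. Applied to females alone it gave 75 genes, 67 of them members, and to males alone 130 genes, 90 of them members. The direction of the sex difference over the members is thus not independent of how they were chosen. In the BnST, members tended to be lower in females than in males. Of 97 members, 90 had a negative log2 fold change (female against male), with a median of −0.65 over the members against 0.01 over all 14476 genes tested, and 43 members had an unadjusted p under 0.05 against 1516 genes in all. That count was 24 without bird 49 and 27 without bird 17. After adjustment 4 members were down-regulated in females and 0 up-regulated (edgeR quasi-likelihood test, p-values adjusted over all genes by Benjamini-Hochberg). The background was 3.7% of all genes called, or 3.25% called lower in females, so that 4 of 97 is near the background. All 4 were in group A, and as its genes vary together they are not independent of each other. The group A mean was 2.97 ± 1.34 (SD, n = 27) in females and 3.93 ± 1.26 (n = 21) in males, and the ranges, from 0.50 to 5.54 and from 0.58 to 5.49, overlapped. With the group A mean itself as a covariate, which by construction removes what its genes share, the median over the members was −0.01 and 5 members were called. Without birds 12, 20 and 25 the median was −0.74 and 7 members were called, and without bird 49 it was −0.56 and 3 were called.

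The member with the smallest p, ENSCJPG00005006619, was lower in females in every region. In the BnST its lowest, median and highest values were 10.4, 21.4 and 84.5 CPM in 27 females and 26.3, 59.7 and 147 CPM in 21 males. In the Tn they were 5.95, 9.70 and 23.3 CPM in females and 10.1, 23.5 and 77.8 CPM in males. In the hypothalamus they were 11.1, 14.5 and 19.1 CPM in females and 15.1, 30.8 and 35.7 CPM in males. No female of the Tn or the hypothalamus reached the male median and 1 female of the BnST did. No male was below the female median in any of the regions. The lowest male was bird 17 in the Tn and in the hypothalamus and bird 49 in the BnST. In the hypothalamus bird 17 was the only 1 of the 21 males below the highest female, so that its label is in doubt. This doubt rests on 1 gene picked for its small p, and the label was not tested with other genes. The label was kept, and the count of members called by sex in the hypothalamus is 2 without this bird against 4 with it.

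**Figure D3:**
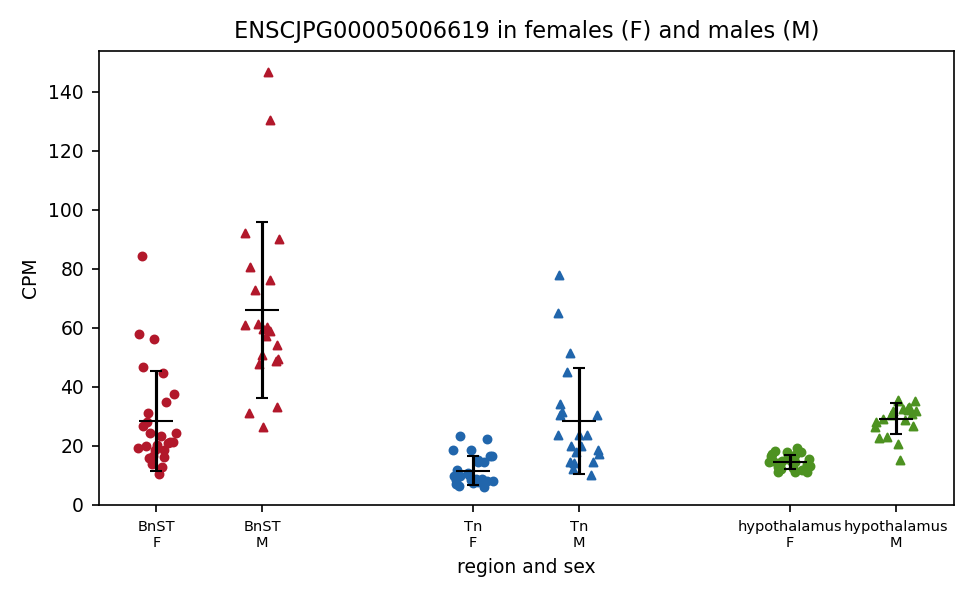
CPM of ENSCJPG00005006619 in females (circles, n = 27) and males (triangles, n = 21) of each region, with the mean and SD in black. Female medians were 21.4, 9.70 and 14.5 CPM and male medians 59.7, 23.5 and 30.8 CPM in the BnST, the Tn and the hypothalamus.

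The log2 fold change of ENSCJPG00005006619 was −1.23 ± 0.20 (SE, adjusted p = 5.64e-06, edgeR) in the BnST, −1.28 ± 0.19 (adjusted p = 9.4e-07) in the Tn and −0.99 ± 0.07 (adjusted p = 4.24e-17) in the hypothalamus. It passed the threshold under all alternatives run in the 3 regions, and among the 9 members called by sex in any region it was the only one called in all 3. The genes tested within the number series were picked for their small p over these same birds, so that the p-values within series are not independent evidence. Within birds 1 to 20 (7 females, 12 males) the difference on the log2 scale was −1.03 in the BnST, −1.34 in the Tn and −0.98 in the hypothalamus (exact permutation tests, two-sided, adjusted p = 0.0061, 0.00583 and 0.000238 over 12 tests). Within birds 21 to 50 (20 females, 9 males) it was −1.29, −0.90 and −0.92 (exact adjusted p = 0.000296, 0.00123 and 1.2e-06). The last rests on an unadjusted p of 9.99e-08, the smallest that the 10015005 regroupings of the exact test can give.

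The other members called by sex differed between regions. ENSCJPG00005003297, a low member of group A, had lowest, median and highest BnST values of 0.374, 1.36 and 5.18 CPM in females and 0.575, 3.65 and 12.4 CPM in males. Its log2 fold change was −1.27 ± 0.27 (SE, adjusted p = 0.000931, edgeR), and the sexes overlapped. Within birds 21 to 50 the difference was −1.58 (exact permutation adjusted p = 0.000238), but within birds 1 to 20 it was −0.66 (exact adjusted p = 0.265). ENSCJPG00005005505, which belongs to no group, was called in the Tn (−1.81 ± 0.34, adjusted p = 7.01e-05) and in the hypothalamus (−0.77 ± 0.20, adjusted p = 0.0112). Its medians were 0.451 CPM in females and 1.02 CPM in males in the Tn, and 0.853 and 1.63 CPM in the hypothalamus. In the BnST, where the rule chose it, its medians were 1.53 and 3.23 CPM and it was not called. Within the series its difference in the Tn was −1.61 and −1.14 (exact adjusted p = 0.0272 and 0.0118), and in the hypothalamus −0.44 and −0.93 (exact adjusted p = 0.259 and 0.00583), for birds 1 to 20 and 21 to 50 respectively.

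Outside the BnST not all members had enough counts to be tested. In the Tn 74 members passed the filter on low counts. Of these 4 were called lower in females and 0 higher, against 4.15% of genes called in all and 3.49% called lower, with a median of −0.60 against 0.00 over all genes. Without the filter 94 of the 97 members were lower in females, with a median of −0.79, and 5 were called. Of the 74 members, 37 had an unadjusted p under 0.05. With the bird number series as a covariate 2 of 88 were called, the median was −0.27 and 4 had such a p. Without bird 14, 3 of 74 were called, the median was −0.42 and 14 had such a p. In the hypothalamus 68 members passed, of which 4 were called lower in females and 0 higher, against 4.87% in all and 3.71% called lower, with a median of −0.03, and without the filter 58 of 97 were lower, with a median of −0.06. The first and second member were among the 4 in the hypothalamus, with log2 fold changes of −1.86 ± 0.57 (adjusted p = 0.0411) and −1.65 ± 0.50 (adjusted p = 0.04, edgeR). Their male values included bird 13 with 3232 and 45.4 CPM, and both lost the threshold without bird 17, with the bird number series as a covariate and without the filter on low counts. Bird 13 was left out of no fit of sex in the hypothalamus, so that how far both differences rest on it was not tested. The difference in the sex effect between regions was tested directly. This fit took the libraries of a bird as independent. Of 97 members 0 were called in BnST against hypothalamus (0% of 14956 genes, 15 members and 754 genes with an unadjusted p below 0.05). In BnST against Tn 0 were called (0% of 14903 genes, 4 members and 268 genes). With the bird as a block 0 members were again called. Then 31 members and 1531 of 16074 genes (hypothalamus) and 3 members and 530 of 16055 genes (Tn) had such a p.

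The effect of the sensitization treatment on the members did not pass the threshold. The rule pooled the treatments as it pooled the sexes, so that a gene could pass through the treatment in which it was higher. It was not applied to each treatment alone. The direction of the treatment difference over the members is thus not independent of how they were chosen. In the BnST 88 of 97 members were higher in sensitized birds, with a median log2 fold change of 0.54 against 0.00 over 14384 genes, but 0 members were called by edgeR (18 members and 796 genes with an unadjusted p below 0.05) and 0 by DESeq2. Leaving out 1 bird moved the 18 to 5 (without bird 49) or 11 (without bird 17). Without birds 12, 20 and 25 the count was 31, with a median of 0.60, and with DESeq2 it was 23. The background was 0.0556%, or 8 genes. The smallest adjusted p of a member was 0.781. The first member had lowest, median and highest BnST values of 20.02, 10717 and 62510 CPM in controls and 27.3, 19158 and 71227 CPM in sensitized birds. Its log2 fold change was 0.89 ± 0.54 (SE, adjusted p = 0.781, edgeR). The group A mean was 3.11 ± 1.31 (SD, n = 24) in controls and 3.67 ± 1.41 (n = 24) in sensitized birds, so that the difference was under 1 SD. More sensitized than control birds were male, and the group A mean was 2.80 ± 1.21 (n = 16) in control females, 3.22 ± 1.53 (n = 11) in sensitized females, 3.73 ± 1.36 (n = 8) in control males and 4.05 ± 1.23 (n = 13) in sensitized males. With sex as a covariate the median over the members was 0.45 and 5 members had an unadjusted p under 0.05. With the group A mean as a covariate it was 0.03, and 8 genes in all were again called. For the interaction of sex with treatment 0 of 97 members were called (0% of 14964 genes, 0 members and 605 genes with an unadjusted p below 0.05).

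In the Tn 62 of the 68 members tested were higher in sensitized birds, with a median of 0.54, and 0 were called by edgeR (0% of 14242 genes, 33 members and 678 genes with an unadjusted p below 0.05). Without bird 14, whose Tn library was the highest for the first member, the median was 0.38 and 17 of 66 members had an unadjusted p under 0.05. With the number series as a covariate the median was 0.42 and 12 of 88 members had such a p. Without the filter 91 of the 97 members were higher, with a median of 0.79. In the hypothalamus 41 of 67 members were higher, with a median of 0.07, and 0 were called (0.0207% of genes called, 7 members and 535 genes with an unadjusted p below 0.05). The treatment effect was not shown to differ between regions. This fit too took the libraries of a bird as independent. Of 97 members 0 were called in BnST against hypothalamus (0% of 14899 genes, 7 members and 236 genes with an unadjusted p below 0.05). In BnST against Tn 0 were called (0% of 14838 genes, 2 members and 253 genes). With the bird as a block 0 members were again called. Then 5 members and 500 of 16074 genes (hypothalamus) and 1 member and 481 of 16055 genes (Tn) had such a p.

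**Figure D4:**
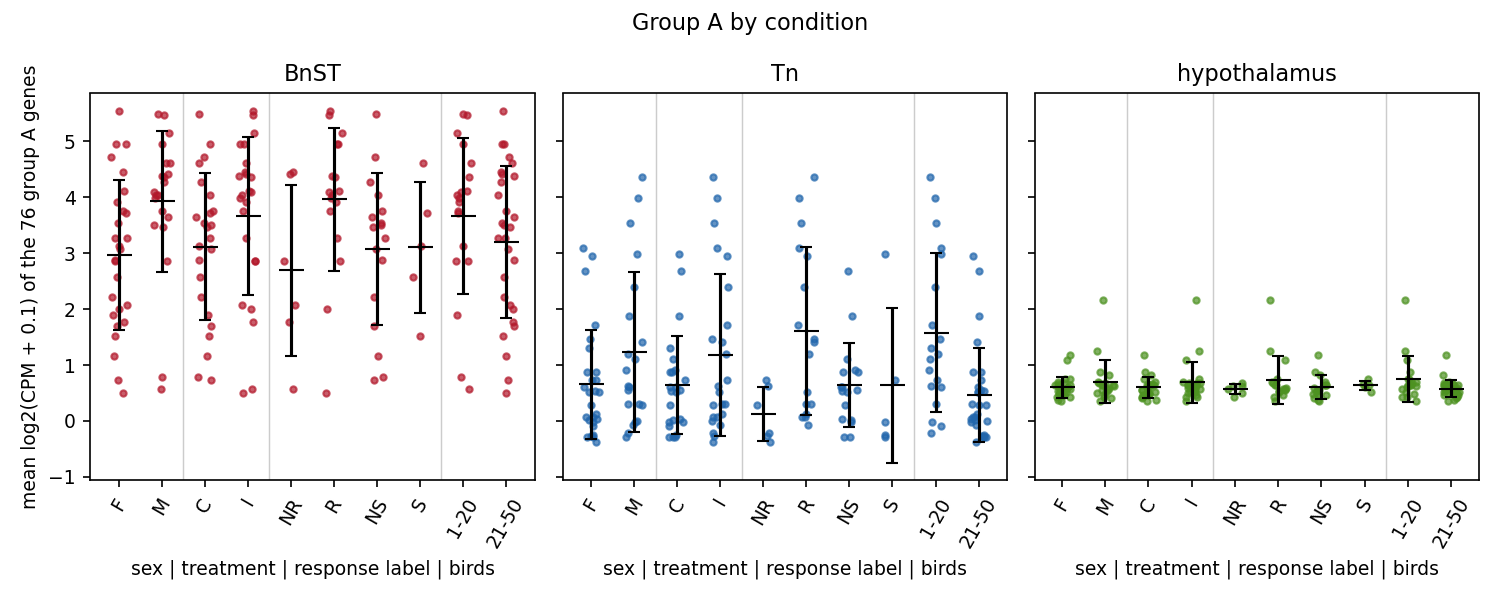
Mean log2(CPM + 0.1) of the 76 group A genes in each library, by sex, treatment (C control, I sensitized), response label and bird number, with the mean and SD in black. In the BnST the groups overlap, with means between 2.69 (NR) and 3.96 (R), and in the hypothalamus all libraries but that of bird 13 (2.16) lie at or below 1.25.

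Response classes were compared in the BnST over the 45 birds with a class. These comparisons use the same libraries as those of treatment and sex. The R and S labels were pooled, and likewise NR and NS, without taking them to stand for a behaviour. As the rule pooled all classes, a gene could pass through a class in which it was higher. Directions over the members between classes are thus not independent of how the members were chosen. Birds labelled R or S had 94 of 97 members higher than birds labelled NR or NS, with a median log2 fold change of 0.61, and 0 members were called (0% of 14374 genes, 24 members and 525 genes with an unadjusted p below 0.05, and 0 members by DESeq2). Without bird 49 the 24 fell to 13, and without bird 17 to 17. The former class held 17 sensitized birds and 5 controls, and with treatment as a covariate the median was 0.41 and 1 member had an unadjusted p under 0.05. Among sensitized birds, 90 members were higher in R than in NR, with a median of 0.89, and 0 members were called (0.00659% of 15182 genes, 14 members and 650 genes with an unadjusted p below 0.05), and without bird 49 the 14 fell to 6. The first member had lowest, median and highest values of 170, 19651 and 71227 CPM in 17 birds labelled R and 27.3, 3769 and 34494 CPM in 6 birds labelled NR, and its log2 fold change was 1.30 ± 0.96 (SE, adjusted p = 0.962, edgeR). The group A mean was 3.96 ± 1.28 in R (SD, n = 17) and 2.69 ± 1.53 in NR (n = 6). Without birds 12 (NS), 20 (NR) and 25 (R), the median for R against NR was 0.77 and 4 members had an unadjusted p under 0.05.

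Among controls, 68 members were lower in S than in NS, with a median of −0.11, and 0 were called (0% of 15182 genes, 0 members and 319 genes with an unadjusted p below 0.05). The first member had 7295, 12668, 26104, 1186 and 3901 CPM in birds 1, 2, 11, 32 and 35, labelled S, and 20.02, 11345 and 62510 CPM as lowest, median and highest of the 17 birds labelled NS. All S values lay within the range of NS. The median turned to 0.07 when bird 32 was left out and to −0.57 when bird 11 was, so that its direction rested on single birds.

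Bird numbers come from the library titles. They were split here into birds 1 to 20 (7 females, 12 males) and birds 21 to 50 (20 females, 9 males). The cut was set for this comparison, as the labels neither divide the numbers nor say what they stand for. The rule pooled the number series, so that a gene could pass through the series in which its Tn level was lower. Applied to birds 1 to 20 alone it gave 111 genes, 87 of them members. Applied to birds 21 to 50 alone it gave 89 genes, 82 of them members. The direction of the series difference over the members and the share of members called are thus not independent of how members were chosen. In the Tn the members were lower in birds 21 to 50. All 77 members tested had a negative log2 fold change, with a median of −0.98 against −0.01 over all genes, and 64 members had an unadjusted p under 0.05. After adjustment 23 members were down-regulated and 0 up-regulated, against a background of 1.14% of genes called and 0.667% called lower. Without the filter all 97 members were negative, with a median of −1.13, and 27 were called. Of the 23, 22 were in group A and 1 in no group. The count depended on the fit. It was 1 of 88 with sex as a covariate, 5 of 88 with treatment as a covariate and 4 of 77 without bird 14, whereas DESeq2 gave 50 of 97. All members tested remained negative in each of these fits. The fits share most of their libraries, and the genes of group A vary together in the Tn (mean r of 0.671). The shared sign is thus not independent evidence from each member.

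The member with the smallest p was ENSCJPG00005010620, which in the Tn had lowest, median and highest values of 147, 194 and 759 CPM in birds 1 to 20 and 107, 150 and 316 CPM in birds 21 to 50. Its log2 fold change was −0.73 ± 0.14 (SE, adjusted p = 0.00501, edgeR), and it was past the threshold in all 5 alternatives. ENSCJPG00005006474 had 1.95, 4.59 and 50.3 CPM in birds 1 to 20 and 1.03, 2.64 and 14.4 CPM in birds 21 to 50, with a log2 fold change of −1.64 ± 0.32 (adjusted p = 0.00598), and it lost the threshold with sex as a covariate (adjusted p = 0.0966). The first member had Tn medians of 1247 and 87.0 CPM, and its log2 fold change was −2.60 ± 0.81 (adjusted p = 0.0999). Values of the 2 series overlapped in each of these genes, and in all 3 bird 14 was the highest of the first series and bird 26 of the second. The group A mean in the Tn was 1.58 ± 1.41 (SD, n = 19) in birds 1 to 20 and 0.47 ± 0.83 (n = 29) in birds 21 to 50.

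Whether the series difference itself differs between regions was not tested. In the BnST 79 of 97 members were lower in birds 21 to 50, with a median of −0.29, and with sex as a covariate 63 were lower, with a median of −0.08. Without the covariate 0 were called (0.317% of genes called, 9 members and 3275 genes with an unadjusted p below 0.05, and 1 member by DESeq2). The group A mean was 3.67 ± 1.39 (n = 19) and 3.20 ± 1.36 (n = 29). In the hypothalamus, where 30.6% of all genes were called between the series, 8 of 69 members were, 2 of them up-regulated and 6 down-regulated in birds 21 to 50. The share of members called was thus below the background. Down-regulated members included the first (−2.12 ± 0.55, adjusted p = 0.0028) and the second (−1.81 ± 0.49, adjusted p = 0.00418, edgeR). Only 1 hypothalamus library, from a bird of the first series, had more than 1000 CPM of the first member. The same library had the highest hypothalamus value of the second member. It was left out of no fit of the series in the hypothalamus, and sex was not added there as a covariate. How far these 2 differences rest on that library or on sex was thus not tested. The up-regulated ones were ENSCJPG00005011650 of group B (0.32 ± 0.10, adjusted p = 0.0127) and ENSCJPG00005004866 of group C (0.59 ± 0.23, adjusted p = 0.0482), and the latter lost the threshold without the filter on low counts (adjusted p = 0.0699). What the number series stands for was not tested.

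**Figure D5:**
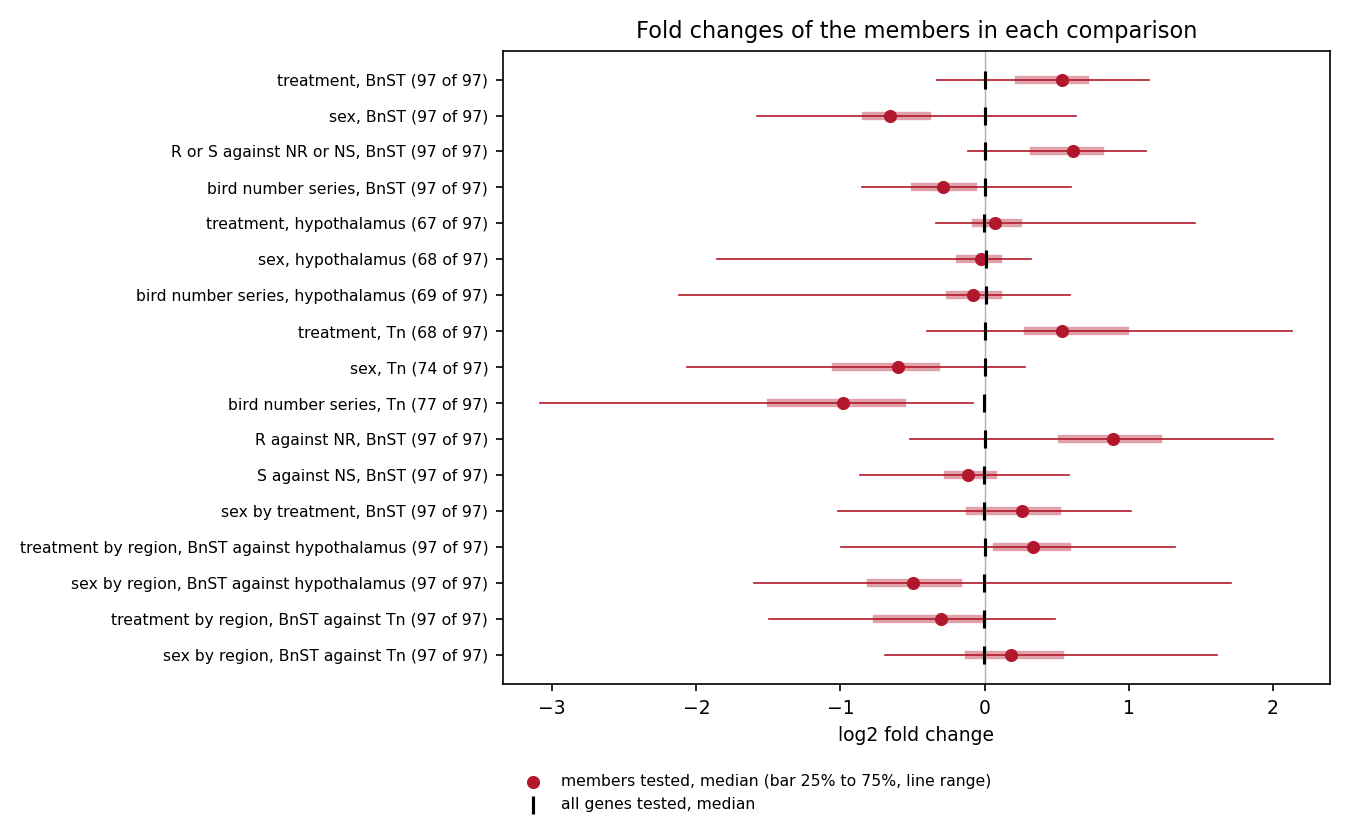
Log2 fold change of the members in each of the 17 comparisons, with the median over the members tested (red point), the middle 50% (bar), the range (line) and the median over all genes tested (black tick). Medians of the members lie at −0.98 for the number series in the Tn, −0.65 for sex in the BnST and 0.54 for treatment in the BnST, while those of all genes lie near 0.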

How the data were processed

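RNA sequencing libraries of 144 samples (48 quail, 3 regions) were used. The deposited values are raw read counts per gene: the authors mapped reads to Coturnix_japonica_2.0 with HISAT2 and counted them with HTSeq, and the strand setting is not given in the sources used here. Counts were not normalized by the authors, and 9664414 to 19640873 reads were counted per library. CPM were computed from column totals. Comparisons were fitted on all genes of a region with edgeR 4.0.16 (TMM, filterByExpr at 10 counts per library and 15 in all, robust quasi-likelihood F test) in R 4.3.3, with Benjamini-Hochberg adjustment over all genes tested and a threshold of 0.05. DESeq2 1.42.0 served as an alternative. The edgeR fit of treatment in the BnST was tested on simulated counts, in which genes were drawn independently of each other. The other steps were not tested in this way.

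The members and lists were chosen with earlier results of these data known. The genes named are the first by rank, the most variable, those at the limit of the rule and at most 2 called members in each direction of a comparison. Groups A, B and C were drawn after the values had been seen, with 3 cut-offs tried (0.5, 0.6 and 0.7). Other alternatives were covariates, other filters and birds left out, and those without bird 14, without birds 12, 20 and 25 and with the group A mean, as well as further fits of the number series in the Tn, were chosen after seeing the data. Gene lists and sequences could not be matched to the identifiers and were not used here. The bird number pairs the regions of a bird, since each bird gave all 3. Deviations from the treatment means of each region were correlated within birds over 11501 genes. The median r was 0.472 between BnST and hypothalamus (48 of 48 birds over 0.1) and 0.406 between BnST and Tn (45 of 48, lowest −0.02). The own number gave the highest r for 44 of 48 BnST libraries with the hypothalamus and for 34 with the Tn. Sex and number series were not removed from these deviations.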

Additional observations from a re-analysis of the deposited data

Results flagged for a closer look

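Dixon's test at its 95% critical value was run in 15 checks, on overlapping measures of the same BnST groups of 4 to 10 libraries. The groups were birds labelled NR (6), birds labelled S (5) and control males (8). In 3 checks a library lay far from the others, each time that of the same bird in the same group. In the BnST of the 8 control males, bird 12 had a group A mean of 0.788 on the scale of log2(CPM + 0.1), a mean over all members of 1.29 and a log2 value of the first member of 4.32, each the lowest of its group. The 3 measures share their genes and are not independent. Chance flags about 1 in 20 independent checks, and these 15 are not independent.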

How the results depend on the processing

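Of 87 values under an alternative for counts of members called and for the number of members, 76 stayed within 1.5 times and 11 moved, and of 67 for single genes 51 kept their side of the threshold and 16 lost it, with 0 changes of direction. A count of 0 in both fits was taken as having stayed. This was so in all alternatives for treatment, response class, sex by treatment and the tests between regions, so that the tally says little about stability there. The members called by number series in the BnST rose from 0 to 1 with DESeq2 and to 1 without bird 49. Those called by sex in the hypothalamus fell from 4 to 2 with the number series as a covariate and to 2 without bird 17, and those in the Tn from 4 to 2 with the number series. Those called by sex in the BnST rose from 4 to 7 without birds 12, 20 and 25. Those called by number series in the Tn went from 23 to 50 with DESeq2, 1 with sex, 5 with treatment and 4 without bird 14. A ratio of at least 3 left 57 of the 97 members. Over all genes, the number series in the BnST called 46, and 450 with DESeq2, 380 with sex, 323 with treatment, 743 without bird 49, 23 without the filter and 9 without birds 12, 20 and 25. Treatment in the BnST called 8 genes and 4 without those birds. For S against NS, leaving out each S bird gave 0 members called each time. With the bird as a replicate block the 4 tests between regions again called 0 members, with medians of 0.35 and −0.61 (treatment and sex, hypothalamus) and −0.11 and −0.10 (Tn), the last against 0.18 without the block. The causes were not tested.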
